A study of Mus musculus with 3 samples.

Results

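This account describes 7 genes of cholesterol synthesis, Hmgcs1, Idi1, Fdft1, Sqle, Lss, Cyp51 and Dhcr7, in F121-9 mouse embryonic stem (ES) cells. They were taken by name from the 55536 genes of the gene tables, of which 13113 reached a TPM (a share of all transcripts after division by length, scaled to a fixed total) of at least 1 in all 3 libraries; none of the 7 is a gene of cholesterol uptake. F121-9 is a hybrid line with Cast and 129 parents, and reads of the parental alleles were not separated in the values used here. Total RNA was sequenced from biological replicates 1, 2 and 3 at passage 14, each from 400 ng of RNA with spike-in RNAs added. The replicates form 1 group with no treatment, mutation or second cell type, so no comparison between conditions exists. The labels do not say whether the replicates were separate cultures, so p-values speak only of variation among these libraries, and that variation may be technical.

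Cells make cholesterol from acetyl-CoA through the mevalonate pathway. Its early steps build isoprenoid units, its middle steps join them into squalene and close the sterol rings, and its late steps turn lanosterol into cholesterol. In many tissues the genes are controlled together by SREBP transcription factors, which are released from the endoplasmic reticulum when sterols are scarce and bind sterol regulatory elements, often beside sites of NF-Y (CCAAT boxes) and Sp1 (GC boxes). Hmgcs1 encodes the cytosolic synthase that forms HMG-CoA, and Idi1 the isomerase that interconverts the isoprenoid building blocks. Fdft1 encodes squalene synthase, which commits farnesyl diphosphate to sterols. Sqle encodes squalene epoxidase, an oxygen-dependent control step, and Lss encodes lanosterol synthase, which closes the rings. Cyp51 encodes the cytochrome P450 that demethylates lanosterol. Dhcr7 encodes dehydrocholesterol reductase, which works at the end of the pathway.

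Promoter sequence was searched for the letters of known motifs. RefSeq promoter windows on GRCm38.p6, from 250 bases before to 50 after the gene's start, were matched for 5 of the 7 genes; Sqle and Fdft1 were not matched. For Idi1, the 145 bases before its most abundant transcript, Idi1-201, held none of the motifs marked below and are not printed. Dhcr7 is not printed either. The stretches upstream of Hmgcs1, Lss and Cyp51, 200 bases each, are printed 5′ to 3′ on the gene's strand. Of these, Hmgcs1 alone has a match to the sterol element spelled TCACNCCAC, while each has a GC box. Other spellings of that element were not searched, so its absence from Lss and Cyp51 is not shown. Capitals mark the sterol element TCACNCCAC, the CCAAT box and the GC box GGGCGG found on either strand, so that ATTGG is a CCAAT box and CCGCCC a GC box on the opposite strand.
Hmgcs1 (chr13:119690151-119690350, plus strand): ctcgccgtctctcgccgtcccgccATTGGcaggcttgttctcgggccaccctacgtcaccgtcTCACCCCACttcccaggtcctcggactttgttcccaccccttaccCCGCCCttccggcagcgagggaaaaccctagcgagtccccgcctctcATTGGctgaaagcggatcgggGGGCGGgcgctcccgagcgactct
Lss (chr10:76531388-76531587, plus strand): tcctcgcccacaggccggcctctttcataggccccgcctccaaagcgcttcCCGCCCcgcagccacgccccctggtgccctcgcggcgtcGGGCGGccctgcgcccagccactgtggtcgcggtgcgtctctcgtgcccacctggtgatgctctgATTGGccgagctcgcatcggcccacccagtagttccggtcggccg
Cyp51 (chr5:4104747-4104946, minus strand): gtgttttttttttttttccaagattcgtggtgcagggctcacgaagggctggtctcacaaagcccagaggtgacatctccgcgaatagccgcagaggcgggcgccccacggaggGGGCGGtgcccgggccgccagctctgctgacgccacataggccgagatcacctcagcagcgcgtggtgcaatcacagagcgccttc

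TCACNCCAC was present in 1 of the 5 windows, that of Hmgcs1, where it lay 137 bases upstream of the RefSeq start. Among all 32851 windows of 300 bases, 1.24% held it. CCAAT was present in 5 of 5 windows against 37.4% of all windows. Hmgcs1 had it on the opposite strand 237, 176 and 45 bases upstream. The only copy in the Cyp51 window lay 29 bases upstream of the RefSeq start, beyond the stretch printed here. It fell within exon sequence of Cyp51-201, whose annotated start lies 49 bases upstream of the RefSeq start. GGGCGG was present in 5 of 5 windows against 35.7% of all, at 127 and, on the opposite strand, 166 bases upstream in Lss. For Idi1 the annotated start of Idi1-201 lies 105 bases upstream of the RefSeq start. All CCAAT and GGGCGG matches of Idi1 fell within exon sequence there, at 45 and 14 bases and at 69 bases upstream of the RefSeq start. The E-box CACGTG and the TATA box TATAAA were in 0 of 5 windows, against 7.15% and 13.6% of all windows. No searched motifs overlapped each other. These are matches of letters only, and binding was not measured.

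Replicates 1, 2 and 3 held 10610782, 9765384 and 10175403 estimated counts in the gene tables, spike-ins included. The gene tables have the columns that RSEM writes and are called RSEM-style, and a separate set of transcript tables has the columns of kallisto. For a gene with no count the upper limit, 3 counts, came to 0.288, 0.313 and 0.301 CPM (counts scaled to a fixed library total) in these libraries, for counting error only. The ES cell label was checked against markers. All 5 ES markers were above 1 TPM in every library, from Esrrb at 106 ± 13.6 to Nanog at 505 ± 10.9 TPM (SD, n = 3), and their summed level ranged from 1713 to 1970 TPM. Of 5 fibroblast markers 0 were above 1 TPM in every library. Thy1 was highest at 1.06 ± 0.544 TPM (1.66 ± 0.336 in the kallisto-style tables, where 1 of 5 passed), Col3a1 had 0 counts, and the list summed to 1.84 to 2.59 TPM. The hepatocyte or yolk sac list, cells known for sterol handling, summed to 0.01 to 0.33 TPM, with Alb, Afp and Ttr at 0 counts.

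All 7 genes were expressed at moderate to high levels, between the 57.6th and the 86.0th percentile of the 11478 expressed protein-coding genes. Their median level was 61.0 TPM, beside 19.7 TPM for those protein-coding genes. Squalene epoxidase RNA was the most abundant and lanosterol synthase RNA the least, although they act at adjacent steps. The fold between these mean levels was 3.77. Part of the Lss level came from short non-coding forms on few counts, and its leading transcript Lss-201 alone stood at 16.2 ± 0.727 TPM. Together the 7 genes took 458, 415 and 407 TPM in replicates 1, 2 and 3, or 0.0427% of all TPM.

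Among the early enzymes, Hmgcs1 (ENSMUSG00000093930.2, mm10 chr13, 119690379 to 119708260, plus strand) stood at 85.9, 73.0 and 67.6 TPM in replicates 1, 2 and 3. Its mean was 75.5 ± 9.42 TPM, and replicate 1 was the highest. Idi1 (ENSMUSG00000058258.14, chr13, 8885501 to 8892451, plus strand) stood at 57.4, 56.4 and 53.3 TPM, a mean of 55.7 ± 2.13 TPM. The libraries lay close together for Idi1, with a coefficient of variation (CV, SD over mean) of 3.83%, beside 12.5% for Hmgcs1.

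Of the enzymes that make and use squalene, Fdft1 and Sqle varied less in TPM between libraries than Lss did. In CPM, Fdft1 stood at 123, 122 and 115 and Lss at 66.5, 65.7 and 62.9 in replicates 1, 2 and 3. Relative to its level, Lss did not vary more than Fdft1 there. Fdft1 (ENSMUSG00000021273.10, chr14, 63145150 to 63179578, minus strand) stood at 62.7, 62.7 and 57.6 TPM in replicates 1, 2 and 3, a mean of 61.0 ± 2.99 TPM. Sqle (ENSMUSG00000022351.14, chr15, 59315077 to 59331192, plus strand) stood at 102, 96.0 and 99.5 TPM, a mean of 99.2 ± 3.04 TPM, with a CV of 3.07% beside 4.90% for Fdft1. Every RSEM-style library of Sqle was above every library of each other gene. Lss (ENSMUSG00000033105.12, chr10, 76531588 to 76557138, plus strand) stood at 29.3, 23.5 and 26.0 TPM, a mean of 26.3 ± 2.94 TPM with a CV of 11.2%, and every library of it was below every library of the other 6 genes.

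Of the enzymes that act on lanosterol and its products, Cyp51 (ENSMUSG00000001467.5, chr5, 4081145 to 4104746, minus strand) stood at 66.9, 61.5 and 62.3 TPM, a mean of 63.5 ± 2.93 TPM. Dhcr7 (ENSMUSG00000058454.15, chr7, 143823145 to 143848410, plus strand) stood at 53.8, 42.2 and 40.7 TPM, a mean of 45.6 ± 7.14 TPM. Replicate 1 was again the highest for both, and the CV of Dhcr7 was 15.7%. The median CV of expressed protein-coding genes was 7.88%.

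**Figure D1:**
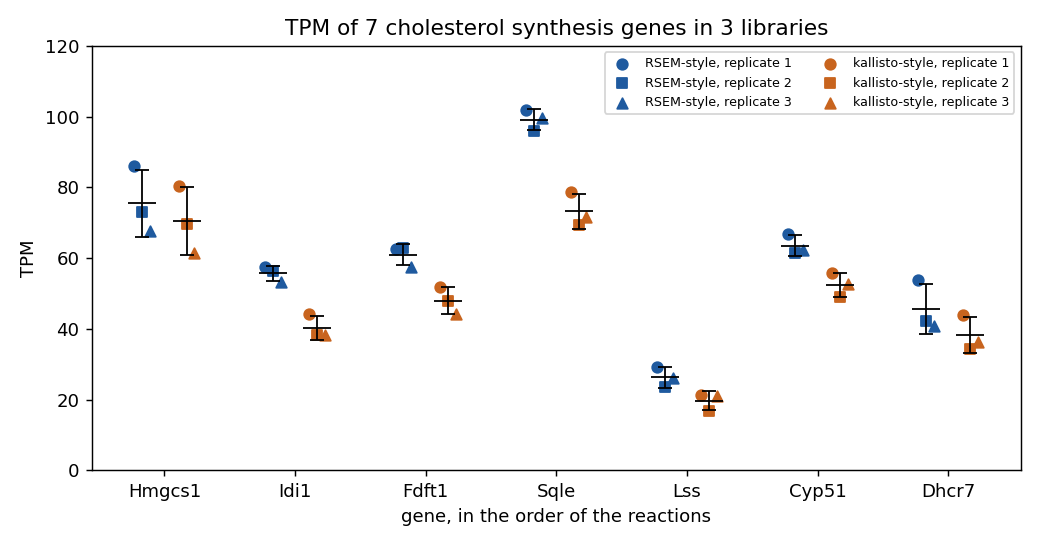
Levels of the 7 genes in TPM (linear axis), in reaction order. Symbols are the 3 libraries in each quantification (blue RSEM-style, orange kallisto-style), and black lines the mean with SD; Sqle is highest and Lss lowest in the RSEM-style tables, at 99.2 and 26.3 TPM.

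In order of level, Sqle exceeded Hmgcs1 by 23.7 ± 7.95 TPM, Hmgcs1 exceeded Cyp51 by 12.0 ± 6.87 TPM, and the library values of these neighbours did not overlap. Cyp51 exceeded Fdft1 by 2.53 ± 3.32 TPM, higher in 2 of 3 libraries, so these did not differ beyond their spread. Fdft1 exceeded Idi1 by 5.30 ± 1.03 TPM with no overlap. Idi1 exceeded Dhcr7 by 10.2 ± 5.71 TPM, higher in 3 of 3 libraries, though the ranges overlapped. Dhcr7 exceeded Lss by 19.3 ± 4.89 TPM with no overlap. Over 3 libraries an exact two-sided permutation of signs cannot go below p = 0.25, so no p is given for the order.

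The kallisto-style tables gave the same order, with summed levels of 376, 325 and 325 TPM in the 3 libraries. Sqle then stood at 78.7, 69.5 and 71.5 TPM and Hmgcs1 at 80.5, 69.5 and 61.5 TPM. These genes overlapped there, with a difference of 2.74 ± 6.39 TPM, higher for Sqle in 1 of 3 libraries. Hmgcs1 was above Cyp51 by 18.1 ± 8.39 TPM and Dhcr7 above Lss by 18.5 ± 3.62 TPM, both without overlap. The 3 steps between Cyp51, Fdft1, Idi1 and Dhcr7 overlapped. The kallisto-style CVs ran from 6.47% for Cyp51 and 6.65% for Sqle, over 8.54% for Idi1, to 13.2% for Lss and Dhcr7 and 13.6% for Hmgcs1.

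How far the libraries differed was tested on rounded counts, which are not divided by length. Dispersion was first set against that of genes of like abundance. edgeR's quasi-likelihood dispersion against its trend called 0 of 7 (adjusted p 0.987 to 0.998), 0 of 7 at an unadjusted p under 0.05, and limma-voom also called 0 of 7. Over all 13391 genes tested this test called 0.0373%, so the absence of a call does not show that a gene was stable. The ratio of the dispersion to the trend was 2.28 for Hmgcs1, 1.46 for Dhcr7 and 0.101 for Sqle. Against counting noise alone, a chi-square test with 2 degrees of freedom and Benjamini-Hochberg adjustment called 1 of 7 genes, Hmgcs1, beside 12.4% of all genes. Hmgcs1 stood at 184, 169 and 160 CPM, with a chi-square of 8.75 per degree of freedom and an adjusted p of 0.00256. Without replicate 1 its adjusted p was 0.812, and without replicate 3 it was 0.0694. With libraries scaled to the ERCC spike-ins, an alternative added after seeing the data, the same test called 7 of 7 genes and 34.7% of all genes.

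The other 6 genes did not pass. Dhcr7 stood at 80.3, 71.1 and 72.5 CPM, again highest in replicate 1, with an adjusted p of 0.168 by the chi-square test, and 0.0449 on kallisto-style counts. Kallisto-style counts of Dhcr7 were on average 1.81 times the RSEM-style counts. At equal relative spread, the chi-square rises with the counts, and the part of this was not tested. Cyp51 had its highest library in replicate 2, at 151, 164 and 154 CPM (adjusted p = 0.237, chi-square test). Sqle, at 191, 188 and 194 CPM, had the lowest ratio of the chi-square to its degrees of freedom, 0.398. In counts, Idi1 and Lss also varied by less than Poisson noise gives on average, with ratios of 0.830 and 0.551.

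In TPM, replicate 1 was above the mean of replicates 2 and 3 for 7 of 7 genes, with ratios from 1.04 for Fdft1 and Sqle to 1.30 for Dhcr7. The same ratio was above 1 for 61.7% of expressed genes, with a median of 1.04. Of the 5 ES cell markers the chi-square test called 4, beside 12.4% of all genes. Of these, 3 were highest in replicate 1, among them Esrrb at 122, 97.5 and 98.8 TPM. The remaining called marker, Nanog, stood at 500, 497 and 517 TPM. The chi-square test calls small differences more readily at high counts. These 5 markers held from 9211 counts (Esrrb) to 22362 counts (Nanog) over the 3 libraries, and the 12.4% is not matched for counts. In CPM the pattern was uneven: the log2 ratios of replicate 1 to replicates 2 and 3 were 0.12 and 0.20 for Hmgcs1 and 0.18 and 0.15 for Dhcr7, but -0.12 and -0.03 for Cyp51. Across genes of at least 20 CPM, replicate 1 moved with transcript length. Its median log2 ratios to replicates 2 and 3 were -0.07 and -0.06 in genes shorter than the range of the 7 (2193 to 3307 nt of effective length) and 0.08 and 0.07 in longer ones. In the 1851 genes within that range the upper quartiles were 0.10 for both ratios, so Hmgcs1 and Dhcr7 lay above them. The part of length, or of what moved the markers, in the ratios of the 7 genes was not tested.

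**Figure D2:**
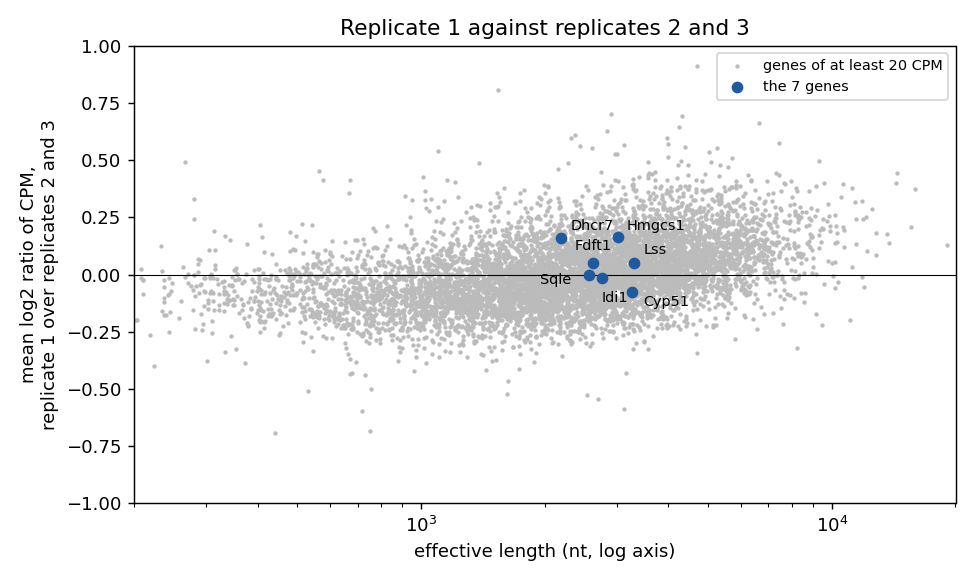
Mean log2 ratio of CPM in replicate 1 to that in replicates 2 and 3, against effective length in nt (log axis), for 7584 genes of at least 20 CPM (grey) and the 7 genes (blue); 37 genes outside the axes are not drawn. Hmgcs1 and Dhcr7 both lie at 0.16, while Cyp51 lies at -0.08.

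For Dhcr7 the TPM ratio of 1.30 was larger than its CPM ratios, and its effective length moved too. The tables gave it 2047, 2194 and 2337 nt in replicates 1, 2 and 3. The shorter transcript Dhcr7-211 (1652 nt, protein-coding) took 18.8%, 8.74% and 0% of the gene's RSEM-style TPM in the same order, on 112, 39.0 and 0 estimated counts. In the kallisto-style tables Dhcr7-211 took 0.432 ± 0.748% on average. Lss had effective lengths of 3106, 3642 and 3174 nt, longest in replicate 2, where its TPM was lowest. Sqle stayed between 2556 and 2561 nt.

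Isoforms were described for the 42 annotated transcripts of the 7 genes. For 7 of 7 genes both quantifications had the same leading transcript, which was protein-coding. Sqle and Idi1 were near to single-isoform genes: Sqle-201 (2758 nt, 11 exons) took 98.5 ± 1.80% and Idi1-201 (3027 nt, 5 exons) 96.8 ± 0.994% of the gene's RSEM-style TPM. In kallisto-style tables the shares were 96.4 ± 1.23% and 96.3 ± 2.31%. Dhcr7-202 (2556 nt, 9 exons) led with 86.2 ± 12.3% and 93.3 ± 2.70%, respectively.

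Hmgcs1, Fdft1, Lss and Cyp51 showed more than 1 isoform. Hmgcs1-201 (3245 nt, 10 exons) took 67.2 ± 3.40% and Hmgcs1-202 (3464 nt) 29.6 ± 4.40% of RSEM-style TPM, but in the kallisto-style tables Hmgcs1-201 took 75.4 ± 6.76%, the 356-nt form Hmgcs1-203 13.1 ± 4.94% and Hmgcs1-202 10.1 ± 2.39%. Hmgcs1-203 took 3.09 ± 2.89% of RSEM-style TPM. Fdft1-201 (2860 nt, 8 exons) took 74.5 ± 2.91% and 58.6 ± 4.46% in the respective tables. Its longer form Fdft1-204 (3698 nt) took 16.8 ± 3.56% and 26.0 ± 0.601%, and the retained-intron form Fdft1-203 took 7.03 ± 2.58% and 7.24 ± 2.69%. Fdft1-202, a form subject to nonsense-mediated decay, took 1.68 ± 1.92% and 8.10 ± 3.68%.

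Lss was the gene with the lowest share for its leading transcript, Lss-201 (4667 nt, 22 exons), at 62.2 ± 7.82% and 61.8 ± 7.53%. The rest of its TPM went mostly to short non-coding forms on few counts. Lss-202, a processed transcript of 352 nt, took 17.9 ± 5.26% of RSEM-style TPM on 8.05, 3.33 and 5.53 estimated counts, and the retained-intron form Lss-205 of 425 nt took 10.7 ± 1.27% on 5.72, 3.53 and 5.03. The retained-intron form Lss-204 took 4.97% and 5.41% on average in the respective tables. By counts, which are not divided by length, protein-coding forms took 83.7 ± 3.06% of Lss and retained-intron forms 15.5 ± 2.76%. Among the latter, the long form Lss-204 (6992 nt) had 78.3, 54.0 and 68.5 counts. Cyp51-201 (3931 nt, 10 exons) took 85.8 ± 5.88% of TPM, and the retained-intron form Cyp51-204 (693 nt) 14.2 ± 5.88% on 49.5, 17.7 and 33.8 counts. By counts, protein-coding forms took 97.8 ± 1.00% of Cyp51.

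**Figure D3:**
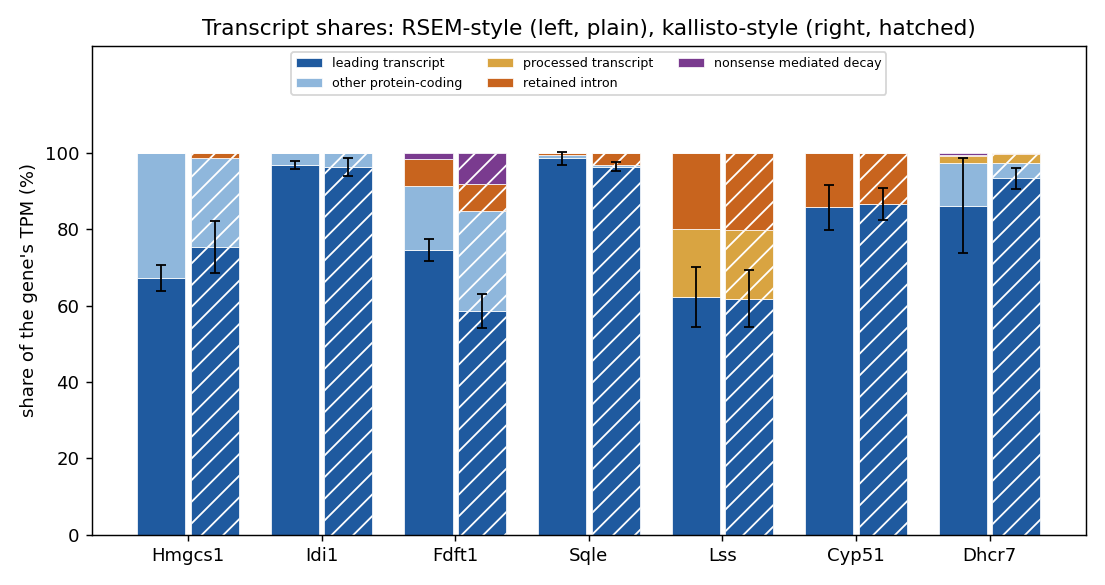
Share of each gene's TPM (percent, mean of 3 libraries) taken by its leading transcript and by other transcripts, stacked by type, in the RSEM-style (plain) and kallisto-style (hatched) tables, with the SD of the leading share as the error bar. Sqle-201 takes 98.5% and Lss-201 takes 62.2% of RSEM-style TPM.

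The same libraries were quantified in both ways, so the quantifications were compared as pairs. The kallisto-style level was lower for 6 of 7 genes by limma's adjusted p alone, beside 61.3% of the 14790 genes tested. Dhcr7 lost this call without replicate 1 (limma adjusted p = 0.0557) and without replicate 2 (limma adjusted p = 0.0664). None of the 7 passed with a difference of at least 1 on the log2(TPM + 1) scale, beside 13.1% of all genes. Differences ranged from -0.46 (SE 0.0567, limma adjusted p = 0.00318) for Idi1 and -0.43 (SE 0.0502, limma adjusted p = 0.00282) for Sqle to -0.10 (SE 0.0472, limma adjusted p = 0.113) for Hmgcs1. Their median was -0.34, beside -0.25 over all genes tested. Relative to that all-gene median, Idi1 was lower by 0.21 and Hmgcs1 higher by 0.15. Such differences understate the change of low genes.

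**Figure D4:**
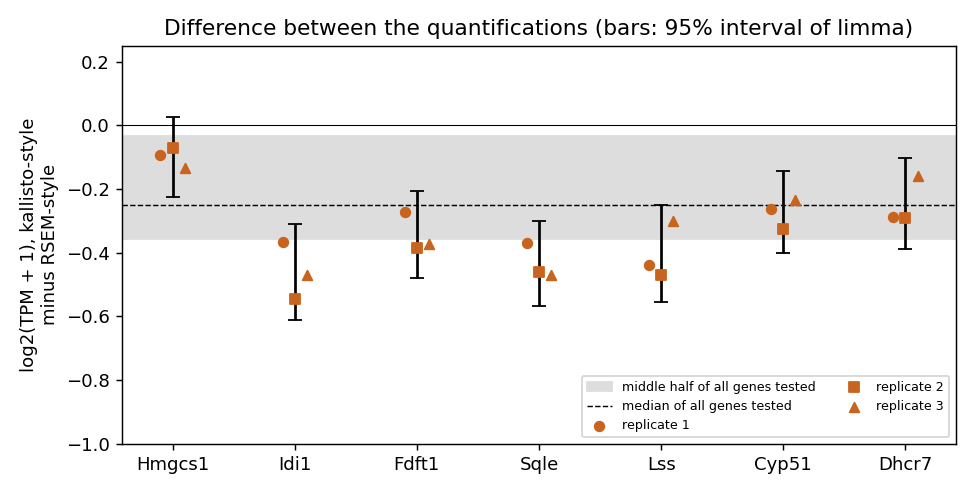
Difference between quantifications, kallisto-style minus RSEM-style log2(TPM + 1), with symbols for libraries, bars for the 95% confidence interval of the mean, and the grey band for the quartiles of all genes tested (-0.36 to -0.03). Idi1 is lowest at -0.46, and Hmgcs1 lies nearest 0 at -0.10.

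Among transcripts, 17 of the 42 were tested and 4 were called, beside 18.9% of the 28903 transcripts tested. Hmgcs1-202 was lower in the kallisto-style tables by a log2 difference of -1.53 (SE 0.0799, limma adjusted p = 0.0018). Hmgcs1-203, a 356-nt form with 6, 3 and 0 RSEM-style counts, was higher by 1.83 (SE 0.389, limma adjusted p = 0.0252). Fdft1-202 was higher by 1.37 (SE 0.184, limma adjusted p = 0.0111), and Sqle-204 by 1.12 (SE 0.0777, limma adjusted p = 0.0031). At a pseudocount of 0.1 the calls of Hmgcs1-203 and Fdft1-202 were lost (limma adjusted p = 0.109 and 0.0661), and those of Hmgcs1-202 and Sqle-204 were kept. Leaving out replicate 2 also ended both (0.098 and 0.0536), replicate 3 that of Hmgcs1-203 (0.0723) and replicate 1 that of Fdft1-202 (0.0627). The calls of Hmgcs1-202 and Sqle-204 were kept without each library in turn.

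The deposited gene tables also give a posterior mean TPM with credibility bounds, whose level is not stated in the sources used here. The ratio of the upper to the lower bound was 1.09 to 1.10 for Sqle, 1.12 to 1.14 for Hmgcs1, 1.23 to 1.27 for Cyp51 and 1.34 to 1.36 for Dhcr7. It was widest for Lss, at 1.84 to 1.90. Estimated counts were whole, within 0.005, in all libraries for 5 of 7 genes and for 81.7% of expressed genes. Idi1 and Fdft1 had fractional counts, and their bounds stood at ratios of 1.16 to 1.18 and 1.14 to 1.17.

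Around these 7 genes the rest of the pathway was broadly expressed. Of 21 listed genes of synthesis, which include the 7, 21 were above 1 TPM in every library, with a median of 55.7 TPM. Fdps, which makes farnesyl diphosphate, stood at 300 ± 4.85 TPM. Lbr, a sterol reductase that is also a receptor of the nuclear envelope, stood at 259 ± 12.1 TPM, and Acat2, a thiolase that makes acetoacetyl-CoA, at 118 ± 3.03 TPM. Hsd17b7, an enzyme of the late steps, was lowest at 7.33 ± 0.455 TPM. Idi2, a paralog of Idi1, had 1 count over the 3 libraries.

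Genes that control synthesis were all expressed, 11 of 11, with a median of 54.3 TPM. The NF-Y subunit gene Nfyb stood at 71.1 ± 2.61 TPM and Nfya was lowest at 6.82 ± 0.203 TPM. Of the uptake and transport genes, 12 of 13 were expressed at a lower median of 5.14 TPM; Npc2, a cholesterol carrier of lysosomes, reached 117 ± 3.68 TPM and Scarb1, a receptor for high-density lipoprotein, 76.9 ± 3.88 TPM. Of the storage and efflux genes 6 of 10 were expressed, with a median of 2.81 TPM. The list summed to 1510 TPM beside 1576 TPM for synthesis, but 1 gene, not reported here by name, held 1400 TPM of it. In the same list Nr1h2, a nuclear receptor for oxysterols, stood at 82.5 ± 7.20 TPM and Soat1, which esterifies cholesterol, at 10.8 ± 1.96 TPM. Ch25h, which makes an oxysterol, had 0 counts. The genes of other branches from farnesyl diphosphate were expressed in 10 of 10 cases with a median of 31.3 TPM, from Fnta, a prenyltransferase subunit, at 115 ± 6.63 TPM to Dhdds, of dolichol synthesis, at 7.07 ± 0.868 TPM. Rabggta and Coq2 stood at 54.2 ± 3.57 and 42.9 ± 2.03 TPM.

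Over the 5 lists, 60 of 65 genes were expressed, or 92.3%, beside 52.1% of 22028 protein-coding genes. The chi-square test against counting noise called 9 of the 61 list genes tested, or 14.8%, close to the 12.4% of all genes. By list it called 2 of 21 synthesis genes, 4 of 11 control genes, and 1 gene in each of the other lists. Median levels in the kallisto-style tables were 44.7 TPM for synthesis, 42.7 for control, 5.23 for uptake and transport, 2.73 for storage and efflux and 27.4 for the other branches.

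**Figure D5:**
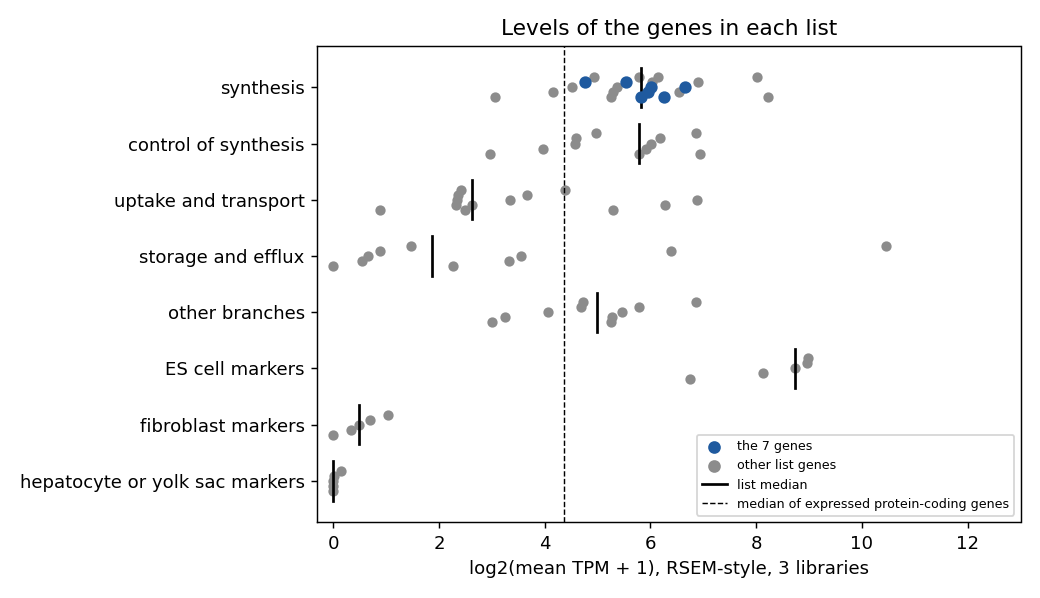
Log2(mean TPM + 1) over 3 libraries of each gene in the pathway and marker lists (grey; the 7 genes blue), with the list median as a bar and the median of expressed protein-coding genes dashed. On the TPM scale the medians are 55.7 TPM for synthesis, 54.3 for control, 31.3 for other branches, 5.14 for uptake and transport and 2.81 for storage and efflux.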

How the data were processed

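Total RNA-seq of 3 libraries of 1 group was analysed from 1 gene table and 2 transcript tables per library. Per the deposited notes, the RSEM-style tables came from transcriptome alignments and the kallisto-style tables from reads without alignment, on mm10 with GENCODE M21. No label or file header names the quantifiers, the aligner, a version or strandedness. The deposited estimated counts are not normalized, and the deposited TPM values sum to 1 fixed total over all features. The deposited posterior mean TPM and its credibility bounds were used as scores, and the deposited percent of each isoform was recomputed from TPM. The members and lists were chosen with earlier results of these data known.

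Counts were rounded and genes filtered with filterByExpr. edgeR 4.0.16 (TMM, intercept-only quasi-likelihood fit) tested dispersion against the trend, a chi-square test with 2 degrees of freedom tested counting noise, and limma 3.58.1 tested paired differences of log2(TPM + 1) for genes or transcripts of at least 1 TPM in either table in all libraries, with adjusted p under 0.05 (Benjamini-Hochberg) and a difference of at least 1. R 4.3.3, Python 3.11.15, numpy 2.4.6, pandas 2.3.3 and scipy 1.17.1 were used, and the scripts were tested on simulated data. Genes named are the 7, paralogs, the 3 highest and 1 lowest of each pathway list, the highest and lowest ES and fibroblast markers, and transcripts with at least 5% of a gene's TPM; markers listed at 0 and called transcripts were added after their values were seen. Some genes this rule takes are not reported here. Spike-ins were left out of library sizes. Alternatives were DESeq2 1.42.0 size factors, ERCC scaling, limma-voom, other filters and pseudocounts, kallisto-style counts and leaving out each library.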

Additional observations from a re-analysis of the deposited data

How the results depend on the processing

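The summed level of the 7 genes, 427 TPM, was 342 in the kallisto-style tables, 388 as posterior means and 496 when rescaled over protein-coding genes. Leaving out 1 library gave 411 to 437. Genes with dispersion beyond the trend, 5 by edgeR, numbered 2 with ERCC scaling, 34 with no count filter, 8 with limma-voom and 16 with kallisto-style counts, and 7 to 14 without 1 library; none was among the 7 in any of these. The chi-square test against counting noise, with 1656 calls, gave 2800 from kallisto-style counts, which called Hmgcs1 and Dhcr7. Those counts were larger, at a median of 1.66 times the RSEM-style counts in expressed genes with a mean of at least 100 counts. With ERCC scaling, chosen after seeing the data, the calls numbered 4644 and included 7 of 7. Without 1 library they numbered 27 (without replicate 1) to 1471. Without replicate 2 or 3 they numbered 1464 and 1471. The cause of these changes was not tested. Genes called between quantifications, 1932, numbered 11478 with no minimum difference and 976 at a minimum of 5 TPM, and transcripts, 5450, numbered 17807 and 2753; without 1 library these were 2021 to 2147 and 4983 to 5430. The median leading isoform share, 85.8%, was 80.4% to 88.6% without 1 library. Expressed list genes, 60, numbered 52 at 5 TPM and 60 to 61 without 1 library. The differences between quantifications kept their sign for the 7 genes under these alternatives. Calls against counting noise did not hold throughout, with 0 of 7 genes called without replicate 1 or without replicate 3. The order of mean levels was kept in the kallisto-style tables, though Sqle was above Hmgcs1 there in only 1 of 3 libraries. Depth limits the precision to counting CVs of 2.29% for Sqle to 3.93% for Lss. No paired analysis between groups was possible because the 3 libraries form 1 group and no second group shares their numbers. The pairs used elsewhere are the quantifications of 1 library and, for the order of levels, neighbouring genes within 1 library.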
